A study of Mus musculus with 10 samples.

Results

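The genes described here encode the constitutive proteasome of mouse liver. They were taken by name and biotype from the deposited gene count table: protein-coding genes named Psma, Psmb, Psmc or Psmd followed by a digit, without Psmb8, Psmb9 and Psmb10, the subunits induced by interferon. The rule found 37 of 54532 genes. Of these, 31 encode subunits of the 20S core (14 genes) or of the 19S regulatory particle (17 genes), and 3, Psmd5, Psmd9 and Psmd10, encode chaperones that help to assemble the 19S base. The other 3 do not belong to the liver's standard particle. Psma8 encodes a testis form of an α subunit and Psmb11 a thymus form of a β subunit, while Psmc3ip encodes a recombination protein that only its name brings in.

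Liver RNA was sequenced from 10 mice. In the napabucasin group, 5 mice received the drug (BBI608) at 20 mg per kg of body weight by gavage each day for 7 days, and in the vehicle group 5 mice received 1% sodium carboxymethyl cellulose (NaCMC) by the same route for the same time. Napabucasin is a quinone compound studied as an inhibitor of STAT3. The labels give no strain, genotype, sex or age, and call the libraries of a group biological replicates without saying what equal replicate numbers share.

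The proteasome degrades proteins that carry ubiquitin chains. Its 20S core is a barrel with α rings at its ends and β rings inside, and only the β subunits encoded by Psmb5, Psmb6 and Psmb7 cut peptide bonds. The 19S particle caps the barrel: a base with a ring of ATPases unfolds the substrate, and a lid removes the ubiquitin. In immune cells and under interferon, Psmb8, Psmb9 and Psmb10 take the place of Psmb5, Psmb6 and Psmb7. When proteasome activity is short, the transcription factor NFE2L1 is known to raise the genes of all subunits together through the antioxidant response element.

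The promoters of the genes were read for 3 short motifs, because the drug's named target STAT3, NFE2L1 and NF-Y bind such motifs. The windows, taken from RefSeq on GRCm38.p6, run from 250 bases before to 50 bases after each start. Windows were found for 30 of the 37 genes (32 windows); none was used for Psma8, Psmb1, Psmb2, Psmb7, Psmc3, Psmd3 and Psmd7. TGACNNNGC, the core of the antioxidant response element, was present on either strand in 5 of the 32 windows (15.6%), against 12.4% of 32817 windows over all genes. CCAAT, the NF-Y motif, was present in 13 of the 32 (40.6%), against 37.4% of all windows. TTCNNNGAA, the STAT core, was present in 1 of the 32 (3.12%), that of Psmd2, against 8.29% of all windows. The sites are shown 5′ to 3′ on the gene's strand, with the motif in capitals. The 5 genes with TGACNNNGC are shown because this is the motif through which subunit genes are known to be raised together.
Psmb5: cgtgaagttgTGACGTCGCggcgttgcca
Psmb6: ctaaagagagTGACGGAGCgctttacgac
Psmc6: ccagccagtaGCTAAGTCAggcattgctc
Psmd12: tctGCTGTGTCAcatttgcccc
Psmd9: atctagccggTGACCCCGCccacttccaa
Psmd2: gcgcgtggccTTCTGGGAAaaggggcggt
Psmb8: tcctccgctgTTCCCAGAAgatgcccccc
In Psmc6 and Psmd12 the motif lies on the strand opposite to the gene. The stretches lie at chr14:54618024-54618052 (minus strand) for Psmb5, chr11:70525338-70525366 for Psmb6, chr14:45329587-45329615 for Psmc6, chr11:107479278-107479299 for Psmd12, chr5:123228149-123228177 for Psmd9 and chr16:20651646-20651674 for Psmd2. The site of Psmd2 begins after the transcription start and that of Psmb8, an induced subunit at chr17:34198088-34198116, before it. None of the printed stretches holds a second of the 3 motifs. A match describes the letters of a window and is not a measured binding site.

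The libraries held 14124484 to 17759967 counts. Levels are given as CPM, counts scaled to a common library size by trimmed means. The 10 hepatocyte markers summed to 45282 to 159815 CPM a library, and none of them was at 0 in all libraries. Some libraries stood apart. Counts of rRNA genes made up 0.912% of vehicle 2, 1.09% of napabucasin 1 and 1.09% of napabucasin 2, against 0.195% to 0.455% of the other 7. Mitochondrially encoded genes made up 19.02% of vehicle 1, 19.9% of napabucasin 1 and 15.3% of napabucasin 2, against 7.03% to 11.4% elsewhere. Nuclear genes of oxidative phosphorylation made up 0.488% of napabucasin 1 and 0.825% of napabucasin 2, against 0.984% to 1.12% of the other 8. Markers of several other cell types had higher values with the drug: summed over 8 T cell genes, 10.9 to 17.2 CPM in vehicle and 17.9 to 43.8 CPM in napabucasin, and over 7 B cell genes, 39.5 to 61.4 and 77.9 to 155 CPM. All 8 T cell, 7 B cell, 8 Kupffer cell, 7 endothelial and 7 stellate cell markers had a higher fitted value with the drug. The same held for the 6 neutrophil and 4 erythroid markers that were tested. A lower one was found for 9 of 10 hepatocyte and 4 of 6 cholangiocyte markers. None of these markers passed the threshold. The Kupffer cell sums overlapped between the groups, at 322 to 1679 CPM in vehicle and 625 to 2292 CPM in napabucasin. Endothelial sums (70.5 to 214 and 175 to 280 CPM) and stellate cell sums (273 to 392 and 337 to 836 CPM) overlapped as well. No marker of these lists was at 0 everywhere.

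The first question was whether the liver's proteasome genes differed between the drug and the vehicle. No such difference was detected in any of them. In edgeR's quasi-likelihood test, 0 of the 35 genes that passed the filter on low counts had a Benjamini-Hochberg adjusted p under 0.05 over 14244 genes, and the background was the same, with 0% called. None of the 35 had an unadjusted p under 0.05 either, where 5.83% of all genes were lower and 9.34% higher with napabucasin at that level. No gene had all 5 napabucasin libraries below, or all 5 above, the 5 vehicle libraries; over all genes these shares were 0.934% and 1.21%. DESeq2 called 242 genes of the table and limma-voom with quality weights 132, and neither called a proteasome gene. These p-values take the spread between libraries of a group as the error. As whole liver was sequenced, fewer cells of a type and less RNA per cell cannot be told apart.

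The fitted values were nevertheless mostly below 0. Of the 35 genes, 30 had a log2 fold change below 0, against 49.9% of all genes tested, and their median was -0.16, against 0.00 over all genes. Psmd9 had the lowest value at -0.60 and Psmc6 the highest at 0.16, and over the 34 subunit and chaperone genes the 95% intervals reached from -1.24 to 0.63. Without scaling beyond the library total, 22 of the 35 were below 0 and the median was -0.05, while the median of all genes was 0.07. With equal replicate numbers taken as pairs, 7 of the 35 had an unadjusted p under 0.05, all lower, where that fit had 8.81% of all genes lower and 11.8% higher at that level. The smallest adjusted p in edgeR's paired test was 0.104 (Psmd9). With limma-voom 21 of the 35 were below 0 (median -0.12), and with 1 surrogate variable in the fit the direction turned: 8 were below 0 and 27 above, with a median of 0.10.

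**Figure D1:**
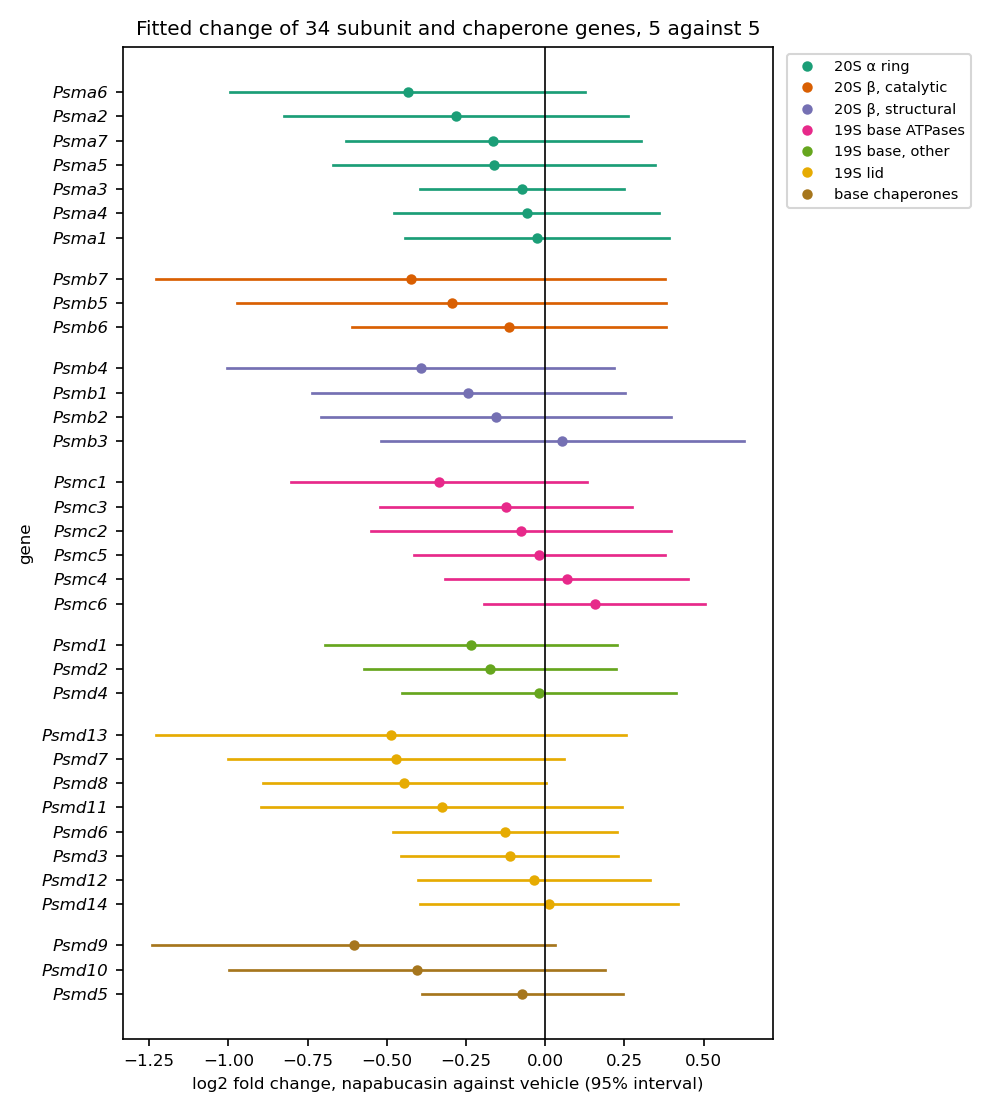
Fitted log2 fold change of napabucasin against vehicle (x axis) for the 34 genes of the subunits and base chaperones (y axis, grouped and coloured by role), with bars for the 95% interval of edgeR's quasi-likelihood fit on 5 libraries a group. Every interval includes 0, most points lie left of it, and the lowest bound is -1.24.

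The low values were concentrated in 2 of the 5 treated mice. The log2 difference from the vehicle mean, as a median over the 34 subunit and chaperone genes, was -0.75 in napabucasin 1 and -0.45 in napabucasin 2. It was -0.01 in napabucasin 3, 0.17 in napabucasin 4 and 0.04 in napabucasin 5. Napabucasin 1 was below all 5 vehicle libraries for 27 of the 34 genes (29.0% of all genes tested) and napabucasin 2 for 23 (22.5% of all genes). In napabucasin 3, 4 and 5 this held for 3, 0 and 4 genes, and for 14.4%, 16.6% and 13.9% of all genes. Napabucasin 1 was the lowest of its group for 30 of the 34 genes, and napabucasin 4 the highest for 24. With napabucasin 1 and 2 left out, a choice made after their low values were seen, the median over 36 tested genes was 0.04, with 15 below 0 and 21 above.

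**Figure D2:**
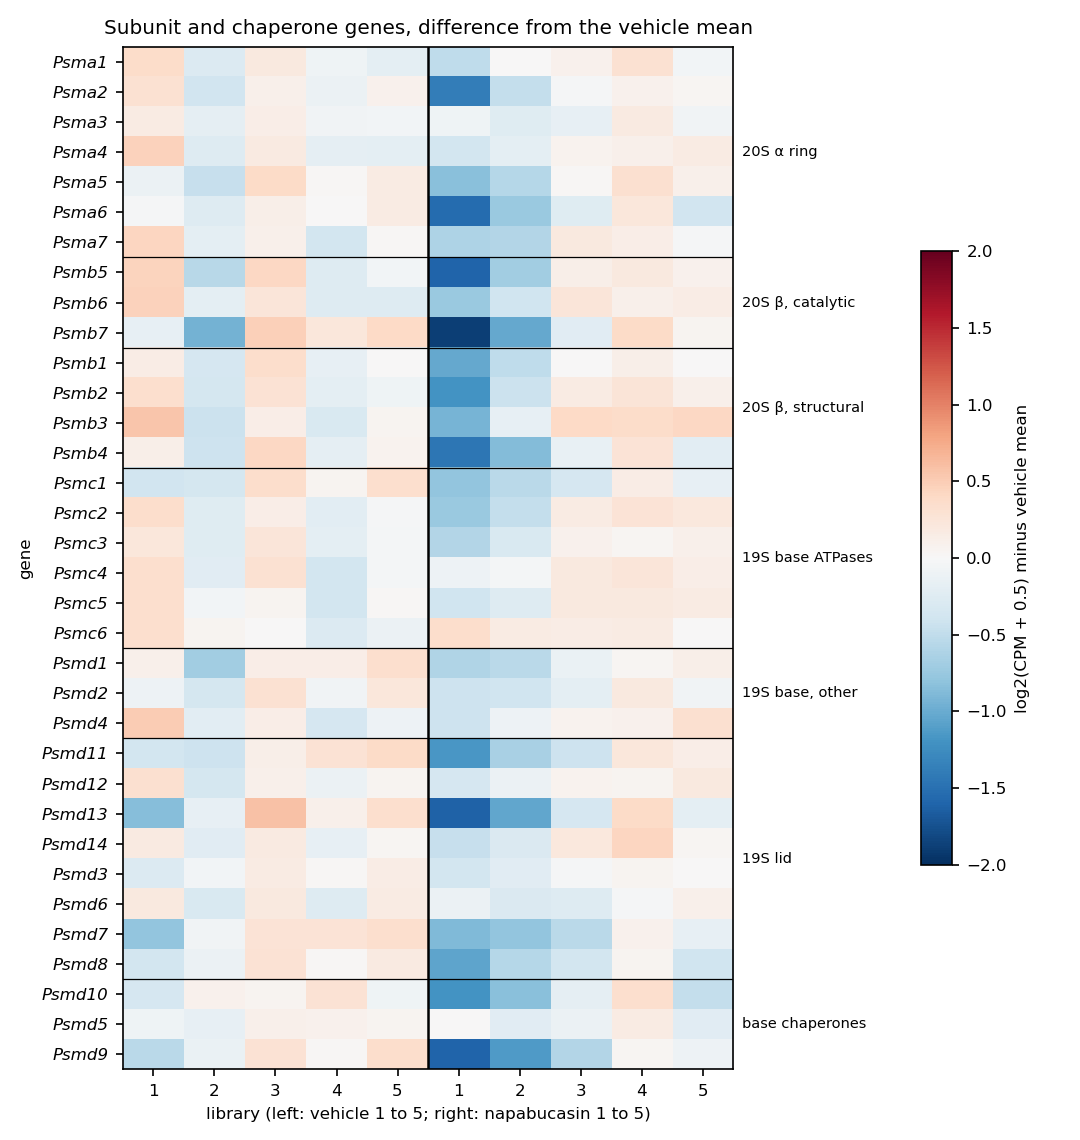
Difference of log2(CPM + 0.5) from the vehicle mean (colour) for 34 genes in rows, grouped by role, and the 10 libraries in columns, vehicle on the left and napabucasin on the right. The blue columns are napabucasin 1 and, less so, napabucasin 2; vehicle 2 is the bluest of the vehicle columns, and the row of Psmc6 has no blue cell among the treated libraries.

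The vehicle group was not even either. The summed level of the 34 genes was 2930, 2141, 3031, 2376 and 2683 CPM in vehicle 1 to 5, and 1630, 1974, 2581, 2919 and 2642 CPM in napabucasin 1 to 5. The groups overlapped, with means of 2632 ± 373 and 2349 ± 530 (SD, n = 5). Vehicle 2 was the lowest vehicle library for 21 of the 34 genes. The 3 lowest sums, in napabucasin 1, napabucasin 2 and vehicle 2, belonged to the 3 libraries with the highest rRNA share. These 3 libraries also had the lowest hepatocyte marker sums, at 81163, 75199 and 45282 CPM, against 85500 to 159815 CPM elsewhere. Napabucasin 4, with 85500 CPM of hepatocyte markers, had a proteasome sum of 2919 CPM. The part of the rRNA share and of the hepatocyte markers in the result was not tested. Vehicle 1, whose mitochondrial share was close to that of napabucasin 1, was the highest vehicle library for 16 of the 34 genes and the lowest for 7.

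**Figure D3:**
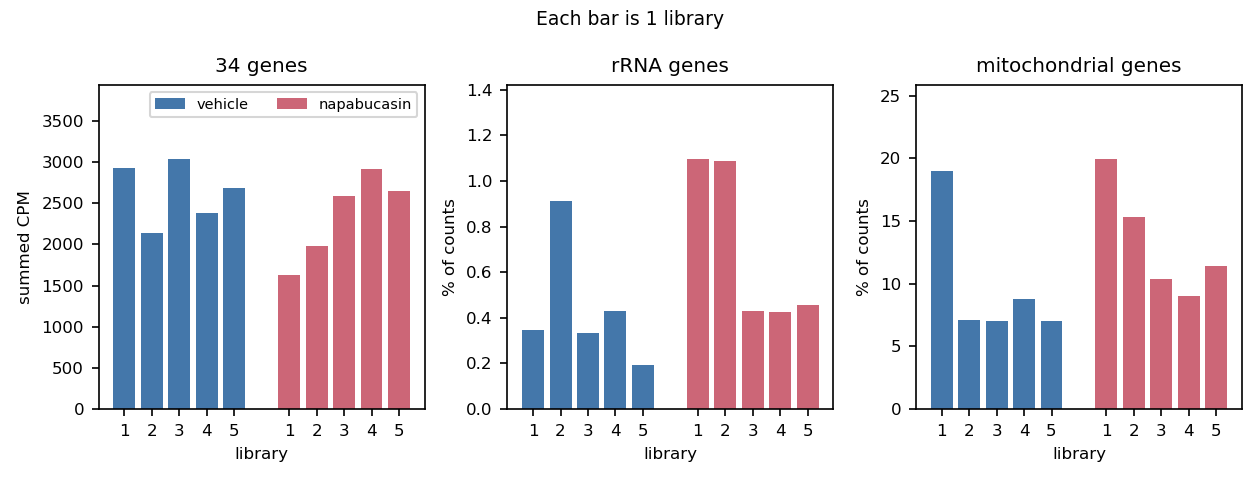
One bar per library, vehicle in blue and napabucasin in red: summed CPM of the 34 subunit and chaperone genes (left), percent of counts in rRNA genes (middle) and percent of counts in mitochondrially encoded genes (right). The lowest sums, 1630, 1974 and 2141 CPM, stand in the libraries with the highest rRNA percentages, and the highest mitochondrial percentages stand in napabucasin 1 and vehicle 1.

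The genes also varied more among treated than among vehicle mice. The coefficient of variation of CPM was higher in the napabucasin group for 27 of the 34 genes, against 56.0% of all genes tested. Its median was 20.3% in vehicle and 26.4% in napabucasin, and 25.3% and 28.2% over all genes. The largest values in the napabucasin group were those of Psmb7 (52.9%) and Psmd13 (50.7%), and the smallest was that of Psmc6 (8.48%). The low values of napabucasin 1 and 2 described above enter these coefficients. Psmb7 and Psmd13 had log2 differences from the vehicle mean of -1.89 and -1.62 in napabucasin 1. Coefficients without napabucasin 1 and 2 were not computed, and the difference in variation between the groups was not tested.

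The 20S α ring forms the gate of the core, through which substrates enter. All 7 of its genes had a fitted value below 0 and none passed the test; the median log2 fold change was -0.16. Psma6 was the lowest: 76.2, 64.6, 84.8, 78.2 and 87.0 CPM in vehicle 1 to 5 and 26.6, 46.1, 65.6, 91.5 and 59.4 CPM in napabucasin 1 to 5. The values of napabucasin 1, 2 and 5 lay below every vehicle value, and napabucasin 4 lay above all of them. Its log2 fold change was -0.43 (SE 0.261, edgeR adjusted p = 0.426). Psma2 had 93.1, 57.6, 80.5, 69.2 and 79.5 CPM in vehicle and 28.6, 53.7, 73.7, 79.4 and 77.1 CPM in napabucasin, so that only napabucasin 1 and 2 left the vehicle range. Psma3, by contrast, held 63.5 to 80.7 CPM in vehicle and 60.9 to 81.3 CPM in napabucasin, with 67.6 CPM in napabucasin 1. Psma4, the α gene with the most counts, had 122 to 201 CPM in vehicle and 114 to 164 CPM in napabucasin, a log2 fold change of -0.06. The other 3, Psma1, Psma5 and Psma7, had log2 fold changes of -0.03, -0.16 and -0.16.

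Of the role groups, the 3 catalytic β genes had the lowest median log2 difference from the vehicle mean in napabucasin 1, at -1.60. That median is the value of Psmb5. Psmb7 was at -1.89, while Psmb6, at -0.75, was no lower than the median of -0.75 over the 34 genes. Psmb5 encodes the subunit with chymotrypsin-like activity, the site that bortezomib blocks. It had 109.5, 54.4, 108, 67.3 and 77.4 CPM in vehicle and 26.2, 49.2, 87.3, 91.6 and 84.8 CPM in napabucasin. Napabucasin 1 and 2 lay below the vehicle range and the other 3 within it, and the log2 fold change was -0.29 (SE 0.315, adjusted p = 0.644 in edgeR's test).
Psmb6, with caspase-like activity, had 178, 113, 152, 108 and 107 CPM in vehicle and 76.5, 98.1, 152, 139 and 143 CPM in napabucasin. Its log2 fold change was -0.11 (SE 0.231, adjusted p = 0.823 in edgeR's test). Psmb7, with trypsin-like activity, had 45.8, 26.4, 71.5, 60.2 and 67.7 CPM in vehicle and 13.5, 25.0, 43.6, 66.8 and 53.4 CPM in napabucasin. Here vehicle 2 was almost as low as napabucasin 2, and without napabucasin 1 and 2 the log2 fold change of -0.42 became 0.00. Exons of Psmb7 overlap those of Nek6 on the opposite strand, which had 139% of the counts of Psmb7. No source used here gives the strand setting of the counting. How many reads fall in the stretch that the 2 genes share was not counted, and the level of Psmb7 is therefore uncertain.

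The 4 structural β genes place the catalytic subunits in the ring. Psmb4 had 150.1, 103, 184, 122 and 144 CPM in vehicle and 50.6, 75.4, 125, 166 and 119 CPM in napabucasin, a log2 fold change of -0.39 (SE 0.285, adjusted p = 0.502 in edgeR's test). Psmb3 was the β gene with a value above 0. Its levels were 115, 57.5, 85.3, 62.9 and 81.4 CPM in vehicle and 40.8, 69.3, 103, 100.2 and 104 CPM in napabucasin. Napabucasin 1 was the lowest and the other 4 treated libraries lay within the vehicle range, for a log2 fold change of 0.05, or 0.35 without napabucasin 1 and 2. Psmb1 and Psmb2 had log2 fold changes of -0.24 and -0.16.

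The 6 ATPases of the 19S base, Psmc1 to Psmc6, pull the substrate into the core. Their median was the nearest to 0 of the role groups with several genes, at -0.05, with 4 genes below 0 and 2 above. Psmc6 had 119, 99.0, 95.2, 78.1 and 87.4 CPM in vehicle and 121, 107, 105, 106 and 95.6 CPM in napabucasin. It alone of the 34 genes was above the vehicle range in napabucasin 1, and its log2 fold change was 0.16 (SE 0.162, adjusted p = 0.636 in edgeR's test). Psmc4 had 54.4 to 89.4 CPM in vehicle and 65.8 to 84.0 CPM in napabucasin, all treated values within the vehicle range. Psmc1 was the lowest ATPase gene, with 59.9, 61.9, 101, 81.4 and 99.1 CPM in vehicle and 45.4, 54.3, 62.0, 87.5 and 70.2 CPM in napabucasin, a log2 fold change of -0.34. Psmc2, Psmc3 and Psmc5 had log2 fold changes of -0.08, -0.12 and -0.02. Psmc3 overlaps Slc39a13 on the opposite strand, which had 18.2% of its counts.

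The base also holds the scaffold subunits encoded by Psmd1 and Psmd2 and, at its border with the lid, the ubiquitin receptor encoded by Psmd4. Their log2 fold changes were -0.23, -0.17 and -0.02. Psmd1 had 27.9 to 57.4 CPM in vehicle, the lowest in vehicle 2, and 29.9 to 49.3 CPM in napabucasin. Psmd2 had 80.0 to 126 CPM in vehicle and 76.2 to 117 CPM in napabucasin, and Psmd4 had 81.8 to 147 and 77.9 to 129 CPM. The ranges of all 3 genes overlapped between the groups.

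Of the members, 8 encode subunits of the 19S lid, 7 of them with a value below 0, and their median was -0.23. Psmd8, which encodes the last subunit to join the lid, had the smallest p of all members. Its levels were 66.4, 78.9, 105, 87.2 and 96.9 CPM in vehicle and 41.2, 57.5, 66.4, 88.9 and 64.9 CPM in napabucasin. In all, 4 treated libraries lay below every vehicle library, while napabucasin 4 was in mid-range. For napabucasin 3 the margin was very small, at 66.35 CPM against 66.44 CPM in vehicle 1. The log2 fold change was -0.44 (SE 0.208; unadjusted p = 0.0512, adjusted p = 0.331 in edgeR's test), or -0.25 without napabucasin 1 and 2. Psmd7 had 29.2, 48.4, 61.9, 61.7 and 64.3 CPM in vehicle and 27.5, 29.2, 35.1, 54.5 and 45.4 CPM in napabucasin, a log2 fold change of -0.47 (SE 0.247, adjusted p = 0.373). Vehicle 1 was as low as the lowest treated libraries.
Psmd13 showed the same low vehicle 1: 21.3, 34.6, 58.3, 41.9 and 49.1 CPM in vehicle and 12.3, 18.7, 30.8, 50.6 and 34.004 CPM in napabucasin, a log2 fold change of -0.49. Its exons overlap Sirt3 on the opposite strand, which had 140% of its counts, so this level is uncertain as well. Psmd14 encodes the deubiquitinase of the lid, the only enzyme among its subunits. It had 44.2, 33.2, 44.0, 34.7 and 40.0 CPM in vehicle and 28.1, 31.8, 45.0, 52.6 and 40.1 CPM in napabucasin, so that 2 treated libraries were below and 2 above the vehicle range. Its log2 fold change was 0.01 (SE 0.190, adjusted p = 0.980 in edgeR's test). Psmd3, Psmd6, Psmd11 and Psmd12 had log2 fold changes of -0.11, -0.13, -0.33 and -0.03.

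The base chaperones bind ATPases before the base closes and leave the finished particle. Psmd9, which encodes p27, had 20.3, 26.955, 36.6, 30.2 and 38.2 CPM in vehicle and 9.41, 13.3, 19.5, 30.4 and 27.6 CPM in napabucasin. Napabucasin 1, 2 and 3 lay below the vehicle range, for a log2 fold change of -0.60 (SE 0.296; unadjusted p = 0.0611, adjusted p = 0.348 in edgeR's test). Psmd10, which encodes gankyrin, had 8.47, 11.6, 11.4, 13.3 and 10.2 CPM in vehicle and 4.49, 5.90, 9.57, 13.9 and 7.66 CPM in napabucasin, a log2 fold change of -0.40. Psmd5 had 25.2 to 30.5 CPM in vehicle and 24.1 to 31.9 CPM in napabucasin, with 28.6 CPM in napabucasin 1. Its log2 fold change was -0.07.

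Within napabucasin 1, then, the subunit and chaperone genes spread widely. Of all genes tested, 29.0% lay below and 31.5% above every vehicle library in napabucasin 1. The log2 differences from the vehicle mean ran from -1.89 (Psmb7) over -1.62 (Psmd13), -1.61 (Psmd9) and -1.60 (Psmb5) to -0.09 (Psma3), 0.01 (Psmd5) and 0.35 (Psmc6). Their SD over the 34 genes was 0.545 in napabucasin 1 and 0.313 in napabucasin 2, against 0.118 to 0.240 in the other 3 treated libraries and 0.134 to 0.376 in the vehicle libraries. The summed CPM of the 14 genes of the 20S core was divided by that of the 17 members that encode subunits of the 19S particle. This ratio was 1.25, 0.980, 1.10, 1.02 and 0.973 in vehicle and 0.796, 0.974, 1.15, 1.11 and 1.06 in napabucasin. Napabucasin 1 had the lowest ratio and vehicle 1 the highest; the group means were 1.07 ± 0.116 and 1.02 ± 0.140 (SD, n = 5). The 5 genes with TGACNNNGC in the promoter window had a median log2 fold change of -0.11 and the 23 tested genes with a window but without the motif -0.16.

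The members of other tissues or functions were near the limit of detection. Psma8 had 2 to 33 counts a library and a log2 fold change of 0.02 (SE 0.538). Psmb11 had 0 counts in all 10 libraries, and Psmc3ip 1 to 16; neither passed the filter. Psmc3ip overlaps Mlx on the opposite strand, which had 4936 counts in all against its 90. Of the 5 markers of thymus and testis, only Foxn1 was at 0 in every library, and 0 passed the filter. The 5 summed to 0.213 to 1.15 CPM in vehicle and 0.214 to 2.62 CPM in napabucasin, with the highest sum in napabucasin 1. The 4 pseudogene rows with matching names, copies of Psmb5, Psmb6 and Psmb7, also held 0 counts.

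Levels can be compared between genes only per length, and here the length matters. On the FPKM scale, which divides by the deposited gene length, the vehicle means ran from 92.0 ± 26.95 for Psmb5 to 3.90 ± 0.367 for Psmd5 (SD, n = 5), with a median of 27.7 over the 34 genes and a ratio of 23.6 between the extremes. The deposited length covers all exons of a gene. For Psma7 it was 3071 bases, against 914 for the longest APPRIS principal transcript in GENCODE M21, and for Psmb5 899 under both definitions. Per kilobase of the principal transcript, the order began with Psmb6 (165 ± 40.1 CPM per kb), Psma4 (128 ± 28.9), Psma7 (122 ± 25.9), Psmb4 (119 ± 25.9), Psmb3 (105 ± 29.5) and Psmb5 (92.6 ± 27.3). Each of these differed from the next by less than the larger of their SDs, and Psmb6 exceeded Psma4 by more than the SD of Psma4. Psma7 had rank 3 on this scale and rank 10 by FPKM, and Psmb5 had ranks 6 and 1. Under both lengths the 3 base chaperones were among the 4 lowest: Psmd9 (11.7 ± 2.82 CPM per kb), Psmd10 (7.68 ± 1.26) and Psmd5 (6.46 ± 0.542), together with Psmd1 (15.0 ± 3.55). In the napabucasin group the same 4 genes had 7.71 ± 3.46, 5.80 ± 2.56, 6.14 ± 0.746 and 12.8 ± 2.86 CPM per kb.

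**Figure D4:**
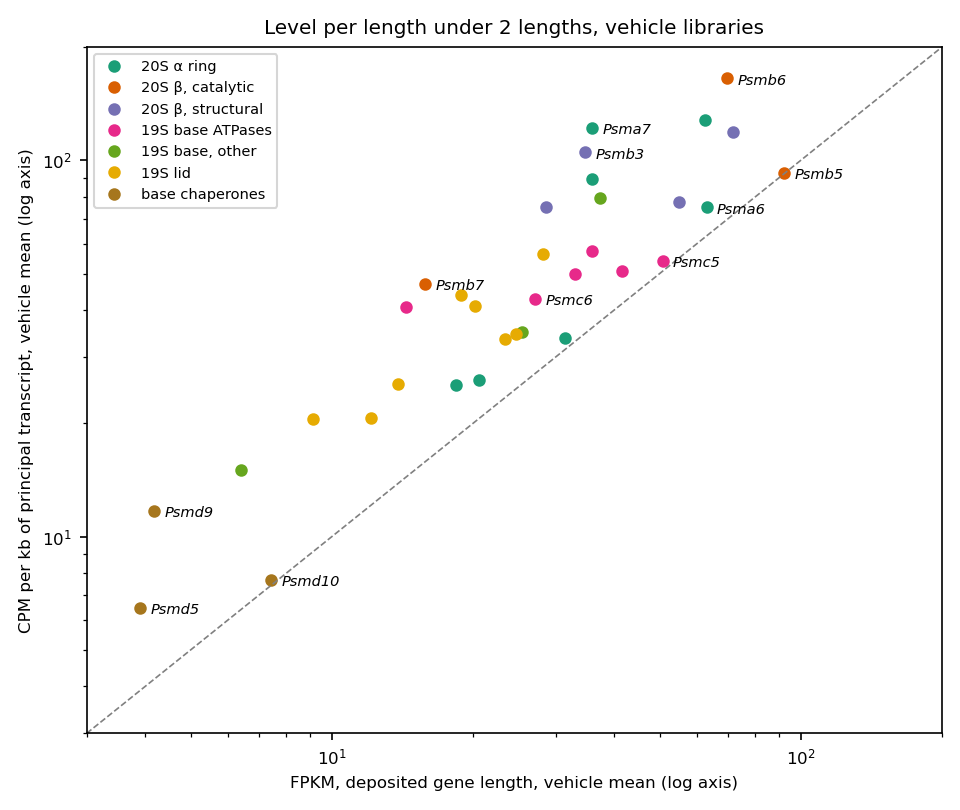
Mean level of the 34 genes in the 5 vehicle libraries, as FPKM with the deposited gene length (x axis, log) and as CPM per kilobase of the principal transcript (y axis, log), coloured by role. The dashed line marks equal values; Psmb5 lies close to it while Psma7 and Psmb7 lie well above, and the base chaperones Psmd5, Psmd9 and Psmd10 lie at the bottom left.

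The second question was whether the induced catalytic subunits gained on the constitutive ones. No difference was detected in the induced genes themselves. The log2 fold change was 0.00 for Psmb8 (95% interval -0.40 to 0.40; 47.1 ± 4.68 CPM in vehicle, 47.0 ± 11.8 in napabucasin), -0.01 for Psmb9 and -0.01 for Psmb10, with edgeR adjusted p-values of 0.998, 0.980 and 0.980. The ratio of counts within a library does not depend on how the library is scaled. Psmb8 to Psmb5 was 0.470, 0.826, 0.486, 0.668 and 0.536 in vehicle and 1.38, 0.680, 0.606, 0.672 and 0.598 in napabucasin. Only napabucasin 1 left the vehicle range; there Psmb5 was at 26.2 CPM and Psmb8 at 36.3 CPM. The mean log2 ratio was 0.35 higher with the drug (exact two-sided permutation test, p = 0.230, 0.345 adjusted over the 3 ratios), 0.13 without napabucasin 1, and 0.48 without vehicle 2 (exact p = 0.0476, not adjusted).
Psmb9 to Psmb6 was 0.265 ± 0.0400 in vehicle and 0.289 ± 0.0364 in napabucasin (SD, n = 5; log2 difference 0.13, exact permutation p = 0.389). Psmb10 to Psmb7 was 1.51, 1.99, 1.09, 1.013 and 0.769 in vehicle and 2.74, 2.22, 1.70, 1.14 and 1.26 in napabucasin. Napabucasin 1 and 2 lay above the vehicle range and the other 3 within it; the log2 difference was 0.51 (exact permutation p = 0.175, 0.345 adjusted), or 0.16 without napabucasin 1 and 2. Between libraries of equal replicate number, this ratio was higher with the drug in 5 of 5 (exact permutation within pairs, p = 0.0625, the smallest that 5 pairs allow), that of Psmb8 to Psmb5 in 4 and that of Psmb9 to Psmb6 in 3. Psmb9 overlaps Tap1 on the opposite strand, which had 159% of its counts, so the ratios with Psmb9 and Psmb7 are uncertain. The smallest p that 5 against 5 allows is 0.00794. The summed T cell and summed B cell markers were higher in each treated library than in each vehicle library. For T cells the margin was small, at 17.9 CPM in napabucasin 5 against 17.2 CPM in vehicle 2. The highest B cell sum was in napabucasin 1 (155 CPM). The part of these markers in the ratios was not tested.

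**Figure D5:**
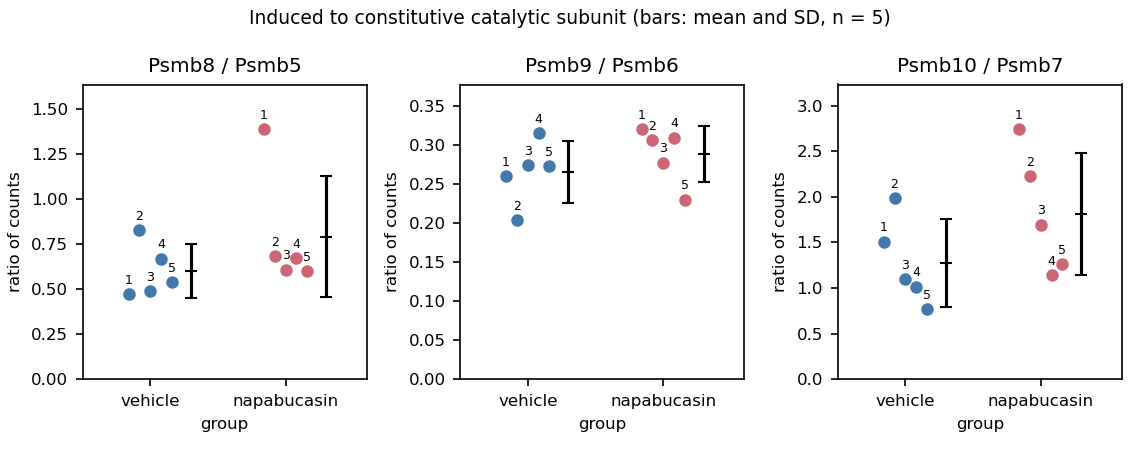
Ratio of counts of each induced catalytic subunit to the constitutive subunit whose place it takes (y axis), per library (numbered points), in vehicle (blue) and napabucasin (red), with the mean and SD of 5 libraries in black. Napabucasin 1 stands at 1.38 in the left panel, apart from the other 4 treated libraries at 0.598 to 0.680, and at 2.74 in the right panel.

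The genes that build, open and serve the proteasome gave no call either. All 5 chaperone genes of the 20S core, Psmg1, Psmg2, Psmg3, Psmg4 and Pomp, had values below 0, with a median of -0.18. Psmg3 was at 12.1 ± 5.05 CPM in vehicle and 8.87 ± 0.841 CPM in napabucasin (log2 fold change -0.45, adjusted p = 0.397 in edgeR's test). Its vehicle values were 20.4, 12.2, 11.9, 8.04 and 8.11 CPM in vehicle 1 to 5. The treated values, 7.86 to 10.2 CPM, overlapped them. Pomp, the maturation factor, was at 105 ± 21.4 CPM in vehicle and 96.4 ± 24.3 CPM in napabucasin. Among the genes of the activators and the inhibitor of the core, 4 of 5 were below 0, with a median of -0.23. Psme1 and Psme2, which encode the activator induced by interferon, had log2 fold changes of 0.06 and -0.08, Psme3 -0.24, Psme4 -0.29, and Psmf1, the inhibitor, -0.23. Of 15 genes of associated proteins and shuttle receptors, 9 were below 0 (median -0.13), none past the threshold. Ecpas, Ube3c and Zfand5 had log2 fold changes of 0.32, -0.39 and 0.36. Ecpas was at 64.8 to 80.0 CPM in vehicle and at 130, 104, 75.4, 69.7 and 70.1 CPM in napabucasin 1 to 5. Only napabucasin 1 and 2 thus left its vehicle range.

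The genes that control proteasome transcription were described for the same reason as the promoter motifs. Of 12 genes in the table, 8 were below 0 and 4 above (median -0.11), none past the threshold. Nfe2l1 was at 98.3 ± 18.9 CPM in vehicle and 78.6 ± 6.10 CPM in napabucasin, a log2 fold change of -0.32 (adjusted p = 0.363 in edgeR's test). Ngly1, the glycanase that NFE2L1 needs, was at 33.4 ± 2.86 and 26.99 ± 2.95 CPM (log2 fold change -0.31, adjusted p = 0.337). Nfe2l2, which encodes NRF2, was at 67.9 to 99.97 CPM in vehicle and at 259, 121, 65.0, 72.7 and 118 CPM in napabucasin 1 to 5. Its log2 fold change was 0.61 (unadjusted p = 0.0798, adjusted p = 0.375 in edgeR's test). The value was highest in napabucasin 1, where the subunit genes were lowest. In that library 31.5% of all genes tested lay above every vehicle library. Mafg, a partner of both factors, had the smallest p of the list: 65.0 to 112 CPM in vehicle and 226, 141, 107, 89.5 and 111 CPM in napabucasin, a log2 fold change of 0.66 (unadjusted p = 0.0202, adjusted p = 0.279 in edgeR's test).
Of the genes of ubiquitin itself, Ubb, a polyubiquitin gene, was at 291 ± 61.3 CPM in vehicle and 321 ± 136 CPM in napabucasin (log2 fold change 0.14, adjusted p = 0.836 in edgeR's test). Rps27a, which joins ubiquitin to a ribosomal protein, had a log2 fold change of -0.14. The activating enzymes Uba1 and Uba6 had -0.12 and 0.07.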

How the data were processed

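Per the labels' protocols, poly(A) RNA of whole liver from 5 vehicle and 5 napabucasin mice was sequenced after random priming. Counts, as deposited, are unscaled reads per gene; CASAVA, HISAT2 2.0.5 and featureCounts 1.5.0-p3 with GRCm38 (mm10) are named in the submitters' processing notes. For strand and annotation release, the setting is not given in the sources used here. The authors derived the FPKM values from counts and gene length; the denominators matched median-of-ratios size factors. The authors' group means entered no test.

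Genes were tested with edgeR 4.0.16 (R 4.3.3): filterByExpr (14244 genes), TMM, robust quasi-likelihood F test, treatment only, Benjamini-Hochberg over all genes, threshold 0.05. CPM use TMM library sizes; SEs and 95% intervals follow from the F statistic. The 3 ratios were compared with an exact permutation test, two-sided, of 252 assignments (scipy 1.17.1). Depth limits the precision of genes with few counts. The scripts were tested on simulated data. Alternatives were other scalings and filters, DESeq2 1.42.0, limma 3.58.1 on voom weights and on log2(FPKM + 1) or log2(FPKM + 0.1), 1 surrogate variable (sva 3.50.0), a replicate block, and leaving out libraries.

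Libraries with the same replicate number deviated together (r = 0.154, 0.228, 0.208, 0.270 and 0.278 for numbers 1 to 5), which the labels do not explain. Only 6 of the 10 libraries had their highest correlation with the library of their own number in the other group. The main tests take no account of pairs; the replicate block and the exchange of labels within pairs do. All members are named; of each pathway list, the up to 4 genes with the smallest p are named, and all genes of lists of up to 6. Some genes that the rule names are not reported here. Psmb8 was added to the printed sites, and the transcript length, the core to particle ratio and the coefficients of variation were added, after values were seen. The members and lists were chosen with earlier results of these data known. Protein sequences were not used here.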

Additional observations from a re-analysis of the deposited data

Results flagged for a closer look

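Of 78 groups of 5 values examined (CPM of each tested gene, the 3 ratios and the summed level, in each group), 1 held a value far from the other 4: the ratio of Psmb8 to Psmb5 in napabucasin 1 was 1.38, against 0.598 to 0.680 in the other 4 treated libraries. Its gap to the nearest of them was 0.896 of the range, above the critical value of 0.71. Chance flags about 1 in 20 such groups, which is about 3.9 of 78.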

How the results depend on the processing

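No proteasome gene passed an adjusted p of 0.05 in any of the 24 alternatives; the smallest adjusted p was 0.104, with the replicate block. The median log2 fold change of the tested members stayed below 0 in 22 of them and turned to 0.10 with 1 surrogate variable and to 0.041 without napabucasin 1 and 2, the latter chosen after the data were seen. Leaving out each library in turn, it ran from -0.24 (without napabucasin 4) to -0.06 (without napabucasin 1). With the replicate block it was -0.17 and no call changed; labels exchanged within pairs gave Psmb10 to Psmb7 an exact p of 0.0625, the smallest that 32 exchanges allow. Psmc6, Psmd6, Psmd7, Psmd8, Psmd9 and Psmd10 kept their sign in every alternative; the surrogate variable turned 24 of 35 signs. The count of genes called over the whole table was 0 with edgeR, 1 without scaling, 1 on log2(FPKM + 0.1), 19 without a filter, 242 with DESeq2, 132 with limma-voom, and 0 to 18 when a library was left out (18 without vehicle 1, 3 without napabucasin 5). The log2 difference in Psmb8 to Psmb5 ran from 0.13 (without napabucasin 1) to 0.48 (without vehicle 2, exact p = 0.0476, unadjusted) as libraries were left out. The causes of these shifts were not tested.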
